A study of Mus musculus with 4 samples.

Results

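The levels of 10 enzyme genes of serine, asparagine, one-carbon and proline metabolism were followed across RNA-sequencing libraries of cultured mouse mammary cells. The genes are Phgdh, Psat1 and Psph of serine synthesis, Asns of asparagine synthesis, Shmt1 and Shmt2, which exchange serine and glycine, Mthfd2, Mthfd1l and Aldh1l2 of the mitochondrial folate path, and Pycr1 of proline synthesis. They were taken by symbol, and all 10 were found among the 54446 genes of the expression table.

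The study asked how baicalin, a flavone glucuronide from the root of Scutellaria, changes the transcriptome of mammary basal and luminal epithelial cells. Cells of wild type C57BL/6 mice were sorted by flow cytometry as basal or luminal, embedded in growth factor-reduced Matrigel and cultured in 3 dimensions under medium renewed every 24 h. The medium of each culture held either DMSO, the control, or 100 μM baicalin. There were 4 groups, which were basal with DMSO, basal with baicalin, luminal with DMSO and luminal with baicalin, and each had 1 library.

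The labels were checked against cell type markers before any comparison. All 10 basal markers were higher in the luminal-labelled than in the basal-labelled library under DMSO, and again all 10 under baicalin. Their summed level was 1761 FPKM (fragments per kilobase of exon, corrected for sequencing depth) in the basal-labelled DMSO library, 479 in the basal-labelled baicalin library, 5404 in the luminal-labelled DMSO library and 7199 in the luminal-labelled baicalin library, with Krt14 the most abundant gene in each. Krt5, a keratin of basal cells, stood at 128, 3.01, 2015 and 2415 FPKM in that order. The 14 luminal markers summed to 4549, 3214, 1399 and 1197 FPKM, led by Krt8 in 3 libraries and by Krt18 in the basal-labelled baicalin library. Of the 14, 11 were lower and 3 higher in the luminal-labelled than in the basal-labelled library under DMSO, and 13 were lower and 1 higher under baicalin. The 3 were Foxa1, Pgr and Esr1 of the hormone-responsive cells, with luminal-labelled over basal-labelled ratios of 5.16 (95% counting interval 4.23 to 6.34), 4.46 (3.79 to 5.27) and 1.45 (1.24 to 1.70) under DMSO, and Pgr was the 1 under baicalin, at 2.29 (1.89 to 2.77). The basal markers and most luminal markers thus go against the labels while these 3 go with them under DMSO, so each library is called here by its label ("labelled basal", "labelled luminal") and no cell type is drawn from it. With baicalin, 4 of the 10 basal markers and 4 of the 14 luminal markers had a log2 change past -1 in the libraries labelled basal, against 3.33% of all genes tested, and 0 of either list had one past 1, against 2.15%. In those labelled luminal, 3 basal and 4 luminal markers were past -1, against 1.59% of all genes, and 1 of each list was past 1, against 2.37%. Whether these differences in cell state have a part in the enzyme values below was not tested. In bulk RNA, fewer cells of a type and less RNA per cell cannot be told apart.

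Markers of other cell types were low, with exceptions. The 8 fibroblast markers summed to 7.50, 3.08, 16.7 and 13.5 FPKM in the same order, with Col1a1, Col1a1, Pdgfra and Fbln1 the most abundant. The 8 immune cell markers summed to 86.4, 98.3, 16.4 and 26.2 FPKM, most of it from Cd14 and Cd68, and the most abundant was Cd14 under DMSO and Cd68 under baicalin. The sums combine changes in opposite directions. Cd68, a lysosomal protein of macrophages, was at 7.49 FPKM in the basal-labelled DMSO library and 51.5 in the baicalin library, a ratio of 6.87 (5.89 to 8.05), and at 4.44 and 13.7 FPKM in the luminal-labelled ones, a ratio of 3.09 (2.48 to 3.87). Cd14 had baicalin ratios of 0.637 (0.597 to 0.679) and 0.810 (0.693 to 0.949) with the basal and the luminal label, and Lyz2 had 0.246 (0.181 to 0.329) and 2.89 (1.79 to 4.85). The part of these markers in the enzyme values was not tested. Ptprc, which marks all leukocytes, was at or below 0.0138 FPKM in every library. The 5 endothelial cell markers summed to at most 3.46 FPKM.

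Serine is made from the glycolytic intermediate 3-phosphoglycerate by Phgdh, Psat1 and Psph in turn. Shmt1 in the cytosol and Shmt2 in mitochondria then split serine into glycine and a carbon unit carried on folate, which feeds nucleotide synthesis, methylation and, through the mitochondrial enzymes, formate and NADPH. Several of these genes, with Asns and Pycr1, are known targets of the transcription factor ATF4, which acts in the integrated stress response.

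The depth behind the FPKM was recovered from the steps of low values and came to 19853601 and 20283070 fragments for the basal-labelled DMSO and baicalin libraries and to 19356100 and 20648786 for the luminal-labelled ones. Changes are differences of log2(FPKM + 1) between 2 libraries, a scale that understates the change of low genes, and a change past 1 or -1 on this scale is counted as past the threshold. Ratios are of plain FPKM, with an exact Clopper-Pearson 95% interval from the recovered fragments. The intervals cover counting error only, and with 1 library per group no difference has a replicate check. Comparisons were limited to the 17787 genes detected in each of the 4 libraries, meaning that no FPKM was 0, and all 10 enzyme genes were among them.

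In the libraries labelled basal, 3 of the 10 enzyme genes were higher with baicalin by more than 1 on the log2 scale, against 2.15% of all genes tested. These were Mthfd2, Aldh1l2 and Pycr1, and Asns lay just below the threshold at 0.99. Shmt1 was the only 1 of the 10 lower by more than 1, against 3.33% of all genes. By counting error alone, 7 of the 10 had a ratio above 1, against 28.1% of all genes, and 2 had a ratio below 1, against 26.3%. Counting intervals widen as fragments become few, and these shares cover genes of every level. They are not matched to the level of the 10, so the counts and shares are not on equal terms. The median log2 change of the 10 was 0.43, beside 0.01 over all genes tested.

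In the libraries labelled luminal, 4 of the 10 were higher with baicalin by more than 1, against 2.37% of all genes, and 0 were lower by more than 1, against 1.59%. The 4 were Phgdh, Psph, Asns and Mthfd2. Counting error alone left 9 of the 10 with a ratio above 1, against 22.9% of all genes, and 1, Shmt1, with a ratio below 1, against 28.7%. These shares are likewise not matched for level. The median log2 change of the 10 was 0.87, beside -0.02 over all genes tested. Together the 10 genes summed to 189 FPKM in the basal-labelled DMSO library and 261 in the baicalin library with that label. With the luminal label the sum was 143 FPKM under DMSO and 258 under baicalin. The sums thus lay apart under DMSO and close together under baicalin. They weigh abundant genes most, and Phgdh alone had 59.9 FPKM with the basal label and 28.5 with the luminal label under DMSO. Single genes did not all follow the sums, since Shmt1, Psph, Mthfd1l and Shmt2 lay farther apart between labels under baicalin.

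**Figure D1:**
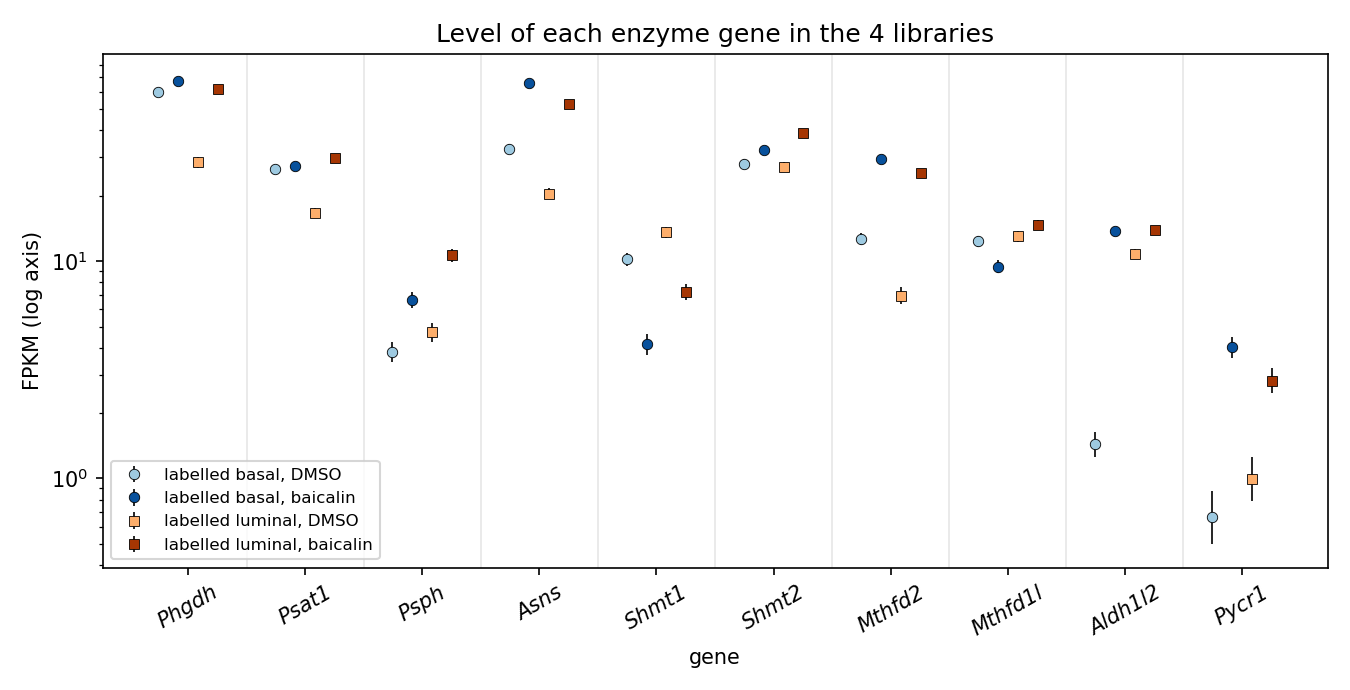
FPKM of the 10 enzyme genes on a log axis, with 1 point for each of the 4 libraries and bars for the exact 95% Poisson counting interval, which is hidden by the point for abundant genes. Phgdh is highest of the 10 in each library, from 28.5 to 67.8 FPKM, Pycr1 is lowest in each, and Aldh1l2 in the basal-labelled DMSO library lies far below its other values, at 1.44 FPKM.

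Phgdh (ENSMUSG00000053398, chromosome 3, 98313170 to 98339990, minus strand, GRCm38), the first enzyme of serine synthesis, had 59.9 FPKM in the basal-labelled DMSO library, 67.8 in the basal-labelled baicalin library, 28.5 in the luminal-labelled DMSO library and 61.9 in the luminal-labelled baicalin library. The luminal-labelled DMSO library was low and the other 3 were high and close together. With baicalin the ratio was 1.13 (95% interval 1.08 to 1.19) for the basal label and 2.18 (2.04 to 2.32) for the luminal label. The levels of the basal-labelled DMSO and the luminal-labelled baicalin libraries did not differ beyond counting error, with a ratio of 1.03 (0.983 to 1.09).

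Psat1 (ENSMUSG00000024640, chromosome 19, 15904678 to 15947337, minus strand), the aminotransferase of the next step, was at 26.6 FPKM with the basal label and DMSO, 27.5 with the basal label and baicalin, 16.6 with the luminal label and DMSO and 29.9 with the luminal label and baicalin. Its pattern over the libraries had the same low point as that of Phgdh, the luminal-labelled DMSO library. The baicalin ratio was 1.80 (1.69 to 1.93) with the luminal label. With the basal label it was 1.04 (0.977 to 1.10), a difference not detectable at this depth.

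Psph (ENSMUSG00000029446, chromosome 5, 129765558 to 129787449, minus strand), the phosphatase that releases serine, was the least abundant of the 3 serine synthesis genes. It stood at 3.83 and 6.64 FPKM in the basal-labelled DMSO and baicalin libraries and at 4.71 and 10.6 FPKM in the luminal-labelled ones. Each baicalin library was above each DMSO library, and all 3 steps in the order of its levels exceeded counting error. The ratios were 1.73 (1.51 to 1.99) with the basal label and 2.25 (2.001 to 2.54) with the luminal label. Per unit of exon length, Phgdh was 15.6 times as abundant as Psph in the basal-labelled DMSO library, 10.2 times in the basal-labelled baicalin library, 6.04 times in the luminal-labelled DMSO library and 5.83 times in the luminal-labelled baicalin library.

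Asns (ENSMUSG00000029752, chromosome 6, 7675169 to 7693254, minus strand), which makes asparagine from aspartate and glutamine, had 32.9 FPKM in the basal-labelled DMSO library and 66.1 in the baicalin library. In the luminal-labelled libraries it had 20.4 FPKM under DMSO and 52.7 under baicalin. Both baicalin libraries were higher than both DMSO libraries, and every neighbouring pair in the order of levels differed beyond counting error. The ratio was 2.01 (1.90 to 2.13) with the basal label, where the log2 change of 0.99 with a pseudocount becomes 1.01 without it and so passes the threshold. With the luminal label the ratio was 2.58 (2.40 to 2.77) and the log2 change 1.32, which ranked 212 of 17787 from the top.

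Shmt1 (ENSMUSG00000020534, chromosome 11, 60788104 to 60811718, minus strand), the cytosolic serine hydroxymethyltransferase, moved in the other direction. It had 10.2 FPKM in the basal-labelled DMSO library and 4.15 in the baicalin library, and 13.5 and 7.21 FPKM in the luminal-labelled DMSO and baicalin libraries. Both DMSO libraries were above both baicalin libraries. The ratios were 0.407 (0.357 to 0.464) with the basal label and 0.532 (0.480 to 0.590) with the luminal label, and the log2 changes were -1.12 and -0.83.

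Shmt2 (ENSMUSG00000025403, chromosome 10, 127517123 to 127522444, minus strand), the mitochondrial counterpart, was at 28.1 and 32.4 FPKM in the basal-labelled DMSO and baicalin libraries and at 27.1 and 38.8 FPKM in the luminal-labelled ones. The DMSO libraries did not differ beyond counting error, with a ratio of 1.04 (0.968 to 1.11), and both baicalin libraries were higher. The baicalin ratio was 1.15 (1.08 to 1.23) with the basal label and 1.43 (1.35 to 1.53) with the luminal label, so neither log2 change, 0.20 and 0.50, was past the threshold. Shmt2 over Shmt1 in FPKM was 2.76 in the basal-labelled DMSO library and 7.79 in the baicalin library. With the luminal label this level ratio was 2.002 under DMSO and 5.39 under baicalin, so the mitochondrial form outweighed the cytosolic one by more under baicalin with either label.

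Mthfd2 (ENSMUSG00000005667, chromosome 6, 83305691 to 83325908, minus strand), the mitochondrial methylene-tetrahydrofolate dehydrogenase and cyclohydrolase, had 12.6 FPKM with the basal label and DMSO and 29.4 with the basal label and baicalin. It had 6.93 FPKM with the luminal label and DMSO and 25.4 with the luminal label and baicalin. The baicalin libraries were the highest for both labels. The ratio was 2.33 (2.15 to 2.52) with the basal label and 3.67 (3.31 to 4.07) with the luminal label. The log2 changes, 1.16 and 1.74, ranked 251 and 93 from the top of the 17787 genes, and both were past the threshold. Without a pseudocount, Asns and Pycr1 also passed with both labels. The share of all genes past the threshold with both labels was not computed.

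Mthfd1l (ENSMUSG00000040675, chromosome 10, 3973118 to 4167081, plus strand), the mitochondrial enzyme that releases formate, varied least in the mitochondrial folate path. Its level was 12.3 FPKM in the basal-labelled DMSO library, 9.43 in the basal-labelled baicalin library, 13.0 in the luminal-labelled DMSO library and 14.7 in the luminal-labelled baicalin library. The basal-labelled baicalin library was the lowest, and the DMSO libraries did not differ beyond counting error. The baicalin ratio was 0.765 (0.698 to 0.838) with the basal label and 1.13 (1.05 to 1.23) with the luminal label, on either side of 1. Mthfd2 over Mthfd1l in FPKM was 1.02 and 3.12 in the basal-labelled DMSO and baicalin libraries and 0.534 and 1.73 in the luminal-labelled ones.

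Aldh1l2 (ENSMUSG00000020256, chromosome 10, 83487450 to 83534140, minus strand), which oxidises mitochondrial formyl-tetrahydrofolate with the formation of NADPH, had 1.44 FPKM, from 214 fragments, in the basal-labelled DMSO library and 13.8 FPKM in the basal-labelled baicalin library. With the luminal label it had 10.8 FPKM under DMSO and 13.9 under baicalin. A single library was thus low, and the other 3 were near each other. The ratio was 9.59 (8.33 to 11.1) with the basal label, where the log2 change of 2.60 ranked 15 of 17787 from the top. With the luminal label it was 1.29 (1.20 to 1.37). The 2 baicalin libraries did not differ beyond counting error, with a ratio of 1.01 (0.9497 to 1.07).

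Pycr1 (ENSMUSG00000025140, chromosome 11, 120635712 to 120643769, minus strand), the mitochondrial enzyme of the last step of proline synthesis, was the least abundant of the 10 in every library. It had 0.666 FPKM, from 52 fragments, in the basal-labelled DMSO library and 4.01 in the baicalin library. The luminal-labelled libraries had 0.998 FPKM, from 76 fragments, under DMSO and 2.82 under baicalin. Both baicalin libraries lay above both DMSO libraries. The ratio was 6.02 (4.48 to 8.24) with the basal label and 2.82 (2.17 to 3.71) with the luminal label. On the log2 scale with a pseudocount the luminal-labelled change was 0.93, under the threshold, and it became 1.498 without the pseudocount.

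**Figure D2:**
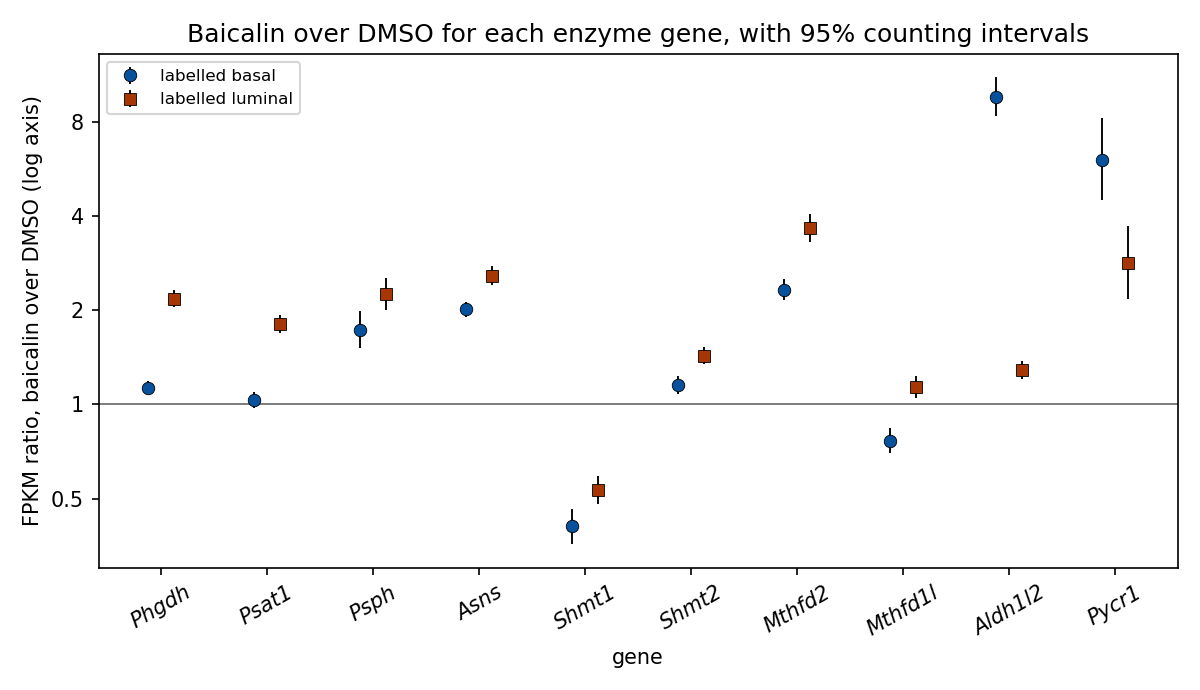
FPKM ratio of baicalin over DMSO for each enzyme gene on a log axis, with 1 point for each label and bars for the exact 95% counting interval. Shmt1 lies below 1 with both labels, Mthfd1l lies below 1 with the basal label (0.765) and above 1 with the luminal label (1.13), and Aldh1l2 has the highest ratio with the basal label (9.59).

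The baicalin ratios of the labels were set against each other for every enzyme gene as a difference of log2 ratios, luminal label minus basal label, with a counting interval. Differences above 0 ran from 0.31 (0.19 to 0.44) for Shmt2 to 0.94 (0.83 to 1.06) for Phgdh. The share of all genes with a difference above 0 was not computed. Psat1 differed by 0.80 (0.67 to 0.93) and Mthfd2 by 0.66 (0.47 to 0.84). For Shmt1 the difference of 0.39 (0.15 to 0.62) marks a smaller decrease with the luminal label. Aldh1l2 and Pycr1 had the opposite sign, at -2.90 (-3.12 to -2.67) and -1.09 (-1.66 to -0.53). Since each of the 4 conditions has 1 library, these differences between labels were not tested over samples.

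Under DMSO, 1 of the 10 enzyme genes was higher in the luminal-labelled library by more than 1 on the log2 scale, against 4.71% of all genes, and 1 was lower by more than 1, against 3.86%. The former was Aldh1l2, with a luminal-labelled over basal-labelled ratio of 7.52 (6.52 to 8.72), and the latter Phgdh, with a ratio of 0.475 (0.445 to 0.507). Psat1, Asns and Mthfd2 were also lower with the luminal label under DMSO, with ratios of 0.624 (0.583 to 0.667), 0.621 (0.575 to 0.670) and 0.549 (0.490 to 0.615). Shmt1, Psph and Pycr1 were higher there, at 1.33 (1.21 to 1.46), 1.23 (1.06 to 1.43) and 1.499 (1.04 to 2.18). The median log2 change of the 10 was 0.01, the same as over all genes.

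Under baicalin, 0 of the 10 were higher in the luminal-labelled library by more than 1, against 5.24% of all genes, and 0 were lower by more than 1, against 2.99%. The log2 changes of the 10 ran from -0.39 for Pycr1 to 0.67 for Shmt1, with a median of 0.06 beside -0.03 over all genes. Phgdh was at a ratio of 0.914 (0.870 to 0.959), Asns at 0.796 (0.758 to 0.836) and Mthfd2 at 0.866 (0.812 to 0.922), each nearer to 1 than under DMSO. Shmt1, Psph, Mthfd1l and Shmt2 were farther from 1 than under DMSO, at 1.74 (1.51 to 1.99), 1.60 (1.44 to 1.78), 1.56 (1.43 to 1.70) and 1.20 (1.13 to 1.27). The baicalin comparisons and the label comparisons share all 4 libraries, so none of them is independent of the others.

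Within a library, Phgdh was the most abundant of the 10 and Pycr1 the least. Asns took the next place after Phgdh in 3 libraries, and Shmt2 did so in the luminal-labelled DMSO library, where Asns came after it. Mthfd2 moved from place 5 of the 10 under DMSO to place 4 under baicalin with the basal label, and from place 8 to place 5 with the luminal label. Shmt1 moved down, from place 7 to place 9 with the basal label and from place 5 to place 9 with the luminal label.

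Other genes of the same pathways are given from lists. Of 17 other folate enzymes and carriers tested, 0 were higher and 3 were lower with baicalin by more than 1 with the basal label, against 2.15% and 3.33% of all genes, with a median log2 change of -0.11. With the luminal label 0 passed in either direction, against 2.37% and 1.59%, and the median was -0.01. They included Tyms, which makes thymidylate, and Aldh1l1, the cytosolic relative of Aldh1l2. Aldh1l1 had 2.72 and 0.611 FPKM in the basal-labelled DMSO and baicalin libraries and 5.03 and 8.06 in the luminal-labelled ones, so that Aldh1l2 over Aldh1l1 went from 0.528 to 22.5 with the basal label and from 2.15 to 1.72 with the luminal label. None of the 6 purine synthesis genes, 3 tested genes of glycine cleavage and 6 tested genes of serine use passed the threshold with either label. Of all genes, 2.15% were higher and 3.33% lower with the basal label, and 2.37% and 1.59% with the luminal label. In lists this short a count of 0 does not stand apart from such shares. Their median log2 changes were -0.20, -0.56 and 0.33 with the basal label and -0.18, -0.13 and 0.00 with the luminal label. Among 9 tested genes of the methionine cycle and transsulfuration, with medians of 0.06 and -0.18, only Cth with the luminal label passed, against 2.37% of all genes higher there, at 2.30 FPKM under DMSO and 8.21 under baicalin.

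Of 18 other proline, glutamate and aspartate enzymes, 3 were higher with baicalin by more than 1 with the basal label, against 2.15% of all genes, and 0 with the luminal label, against 2.37%, and 0 were lower with either. The medians were 0.09 and 0.04. The 3 were Aldh18a1, which makes the precursor of proline upstream of Pycr1, and the transaminases Got1 and Gpt2. Got1 lay close to the threshold at 1.03, and fell below it to 0.998 when the libraries were scaled to equal sums. Aldh18a1 had a baicalin ratio of 2.18 (2.03 to 2.33) with the basal label and 1.67 (1.56 to 1.79) with the luminal label.

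Of 14 regulators of the integrated stress response tested, 6 were higher with baicalin by more than 1 with the basal label, against 2.15% of all genes, and 6 with the luminal label, against 2.37%, and 0 were lower by more than 1 with either. The median log2 changes were 0.87 and 0.95. With the basal label 3 of the 14 had a change below 0, and 2 of these had a ratio below 1 beyond counting error. All 14 were above 0 with the luminal label. Atf4 mRNA, named for its role and not by size of change, had 141 and 224 FPKM in the basal-labelled DMSO and baicalin libraries and 117 and 195 FPKM in the luminal-labelled ones. Of the 13 proliferation genes, 11 were lower by more than 1 with the basal label, against 3.33% of all genes, and 5 with the luminal label, against 1.59%, with medians of -2.15 and -0.78. Whether either list has a part in the values of the enzyme genes was not tested.

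The mean profile of the 10 enzyme genes over the 4 libraries was compared with 9145 of the 17787 genes, those outside the 10 with at least 5 FPKM in a library. The nearest of these, by Euclidean distance of log2(FPKM + 1) centred on each gene's mean, were Gramd3, Fas, Gm15793, Dcun1d3 and Arap2. Their distances ran from 0.05 to 0.12. The enzyme genes themselves lay at 0.32 for Shmt2 to 1.69 for Shmt1 and 1.80 for Aldh1l2, so the mean profile describes some of them poorly.

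Promoter windows from 250 bases before to 50 after the RefSeq transcription start were searched for motifs, since most of the genes moved in one direction with baicalin. RefSeq sequences of GRCm38.p6 were found for 9 of the 10 genes, with Aldh1l2 the exception, in 10 windows, since Psat1 has 2. Genes with a match in any window were counted. The motif TGATGNAA, the core of the composite element that ATF4 and C/EBP proteins bind, was in 2 of the 9 genes, Asns and Pycr1, against 4.51% of the 27025 genes with a window. TGACNNNGC, the core of the antioxidant response element, was in 3, Asns, Phgdh and Psph, against 13.99% of all genes with a window. The E-box CACGTG was in 0 of the 9, against 8.09%. Both strands were searched, no matches of different motifs overlapped in these genes, and a match describes the letters only. The stretches upstream of the RefSeq start that hold TGATGNAA are shown on the gene's strand, which is the minus strand for both genes, with the match in capitals. That of Asns is chr6:7693215-7693242, with the match beginning 23 bases before the RefSeq start at 7693209. The GENCODE gene reaches to 7693254, so this stretch lies inside it, and all 28 bases are exonic there. That of Pycr1 is chr11:120643823-120643872, upstream of both the RefSeq start and the GENCODE gene, with the match beginning 103 bases before the RefSeq start.
Asns: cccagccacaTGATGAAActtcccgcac
Pycr1: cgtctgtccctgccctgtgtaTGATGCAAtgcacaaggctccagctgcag
The match of Psph lay just after the RefSeq start. The match of Phgdh to TGACNNNGC, read on the opposite strand, lies in chr3:98339993-98340043 upstream of the GENCODE gene, and begins 53 bases before the RefSeq start.
Phgdh: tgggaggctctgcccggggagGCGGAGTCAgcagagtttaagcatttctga

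Reads of Phgdh are uncertain in part, since 13 processed pseudogenes match its transcripts at 95.04% to 98.7% identity over 282 to 1608 bases. These copies summed to 3.73 and 3.39 FPKM in the basal-labelled DMSO and baicalin libraries and to 4.17 and 4.52 FPKM in the luminal-labelled ones, below Phgdh itself in each. On the opposite strand Psph shares 452 exon bases with Cct6a, Shmt1 shares 184 with Smcr8, Aldh1l2 shares 1056 with D10Wsu102e and Shmt2 shares 32 with Ndufa4l2. On the same strand the spans of Mthfd2 and Gm43890 overlap over 2799 bases and those of Mthfd1l and Gm16074 over 444, with 0 exon bases shared. Gm43890 was at or below 0.247 FPKM and Gm16074 at or below 0.555 in every library. Whether reads were counted by strand is not stated in the sources used here, so reads in these stretches cannot be assigned with certainty. Cct6a was at 92.0 and 67.0 FPKM with the basal label and 76.8 and 66.1 FPKM with the luminal label, lower under baicalin where Psph was higher.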

How the data were processed

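RNA of 4 libraries, 1 per group, was enriched with oligo(dT) beads and prepared with a KAPA stranded kit. The authors mapped reads with HISAT2 to the Ensembl GRCm38 release 94 genome and deposited FPKM per gene computed with featureCounts, and the submitters' processing notes also name Bowtie 0.12.2, mm8 and GRCm38. Exon lengths came from GENCODE mouse release 21. FPKM times exon length fell on whole fragments, within 0.1, for 98.9% to 99.1% of low values, which gave the depths. Ratios have Clopper-Pearson 95% intervals (Python 3.11.15, scipy 1.17.1, numpy 2.4.6, pandas 2.3.3), and log2 changes use a pseudocount of 1 FPKM. The computation was tested on simulated data. Alternatives changed the pseudocount, filter, scaling and threshold.

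The members and lists were chosen with earlier results of these data known. Besides the 10 members, genes were named if past the threshold with baicalin, among the 3 largest changes or the most abundant of a list, or among the 5 nearest profiles. Atf4, genes on opposite sides of 1 with the 2 labels, overlapping genes and some markers were named outside this rule, with their values seen. Pycr3 is listed as Pycrl, and Ddit3 has a second row at 0, which was not used. Near-identical copies were sought at 95% identity over 200 bases. The planned protein comparison was not run.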

Additional observations from a re-analysis of the deposited data

Results flagged for a closer look

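For some genes the FPKM ratio of baicalin over DMSO lay on opposite sides of 1 with the basal and the luminal label, each beyond counting error. The share of all genes that did so was not computed, so how common this is remains unknown. Among the 10 enzyme genes it was Mthfd1l, with a log2 ratio of -0.39 with the basal label and 0.18 with the luminal label, a difference of 0.57 (0.40 to 0.74). The other genes given here came from the companion lists. Cell type markers were left out, although some of them, among them Krt5, Krt14, Krt17 and Trp63, met the same rule. Aldh1l1 had -2.15 and 0.68, a difference of 2.83 (2.38 to 3.29). Mtap, which recycles methylthioadenosine, had -0.75 and 0.24, a difference of 0.98 (0.86 to 1.10). Nupr1 of the stress response list had -0.05 and 1.19, a difference of 1.24 (1.16 to 1.33). Glud1, glutamate dehydrogenase, had -0.08 and 0.23, a difference of 0.31 (0.21 to 0.41). Oat, ornithine aminotransferase, had -0.74 and 0.24, a difference of 0.98 (0.80 to 1.16), and Eif2ak3, a kinase of the stress response, had -0.29 and 0.66, a difference of 0.95 (0.79 to 1.11). In the reverse sense, up with the basal label and down with the luminal one, were Asrgl1, an asparaginase, at 0.29 and -0.67, a difference of -0.96 (-1.31 to -0.61), Ptdss2, which makes phosphatidylserine, at 0.36 and -0.28, a difference of -0.64 (-0.86 to -0.42), and Mat2b, a subunit of methionine adenosyltransferase, at 0.15 and -0.43, a difference of -0.57 (-0.72 to -0.43). Each label has 1 library per treatment, so these differences were not tested.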

How the results depend on the processing

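The count of enzyme genes past the threshold kept its size within 1.5 times under other pseudocounts and scalings. Changing the threshold moved it further, except at 0.5 with the basal label and at 2 between labels under baicalin. The filters change only which genes are compared, and all 10 enzyme genes pass each of them, so their count could not change there. The shares of all genes did change. With at least 1 FPKM in a library, 3.25% were higher and 4.63% lower with baicalin with the basal label. With the luminal label these shares were 3.59% and 2.59%. At a log2 threshold of 2, 1 of the 10 passed with baicalin in the libraries labelled basal, 0 in those labelled luminal and 1 between labels under DMSO, against 0.231% of all genes higher and 0.742% lower, 0.337% and 0.259%, and 1.04% and 0.843%. At 0.5, 8 passed with the luminal label, and 5 and 3 passed between labels under DMSO and under baicalin, against 8.01% of all genes higher and 8.29% lower, 14.2% and 12.3%, and 12.6% and 12.2%. A pseudocount of 0.1 or none added Asns with the basal label and Pycr1 with the luminal label, and raised the share of all genes higher with baicalin from 2.15% to 6.31% and 9.52% with the basal label and from 2.37% to 5.91% and 8.76% with the luminal label. TPM (each library summed to the same total) enlarges all values while the pseudocount stays at 1. It added Pycr1 with the luminal label, and the shares of all genes higher rose to 3.91% with the basal label and 4.04% with the luminal label. An alternative chosen after seeing the data gave the libraries equal sums at the FPKM scale. It added no enzyme gene, with 2.09% and 2.38% of all genes higher, so the gain under TPM goes with the smaller relative pseudocount. The median change with the luminal label moved from 0.87 to 0.98 with a pseudocount of 0.1 and to 0.99 without one. Centring on the median ratio moved the median between labels under baicalin from 0.06 to 0.16, with that of all genes going from -0.03 to 0.07. Under TPM, which shifts all genes between labels by -0.11 under DMSO and -0.07 under baicalin, the medians of the enzyme genes went from 0.01 to -0.09 and from 0.06 to -0.00322, and those of all genes from 0.01 to -0.06 and from -0.03 to -0.10.

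No change of an enzyme gene that exceeded counting error reversed under these alternatives, and 174 of 200 single values under other pseudocounts and scalings moved by less than the counting interval. Between labels under DMSO, TPM and equal sums turned small changes of Mcm6 to -0.0129 and -0.0127, Pcna to -0.0142 and -0.0141 and Top2a to -0.0331 and -0.0325, and centring turned that of Sesn2 between labels under baicalin to 0.00054; the scaling shift itself is as large as these changes. A fit over the 4 libraries with the label as a block was not run. The low counts of Pycr1 under DMSO, 52 and 76 fragments, limit its ratios, and no value has a replicate error.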
